A study of Mus musculus with 18 samples.

Results

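Collagen genes were taken as all genes whose symbol is Col, a number, a and a number, and 44 of the 27179 genes listed carried such a symbol. The 35 with a mean normalized count of at least 10 over the 18 libraries were described, and the other 9 fell below that limit. These 35 comprised 11 of 11 fibrillar genes, 9 of 9 network genes, 5 of 9 FACIT genes (fibril-associated collagens with interrupted triple helices) and 10 of 15 others. RNA came from primary MSCs, the adherent stromal cells of C57BL6 mouse bone marrow, in 3 groups of 6 libraries. Young MSCs came from mice of 6 weeks and old MSCs from mice of 18 to 24 months, both cultured without treatment. For rejuvenated old MSCs, old cells had shared a well with young cells for 7 days across a 0.4 µm Transwell membrane, which passes soluble factors and holds back cells. The labels give alpha-MEM with 20% FBS as the growth medium, whereas the methods describe expansion in a different, low-serum medium, so the medium is not settled. The methods name passages 2 to 5 and replicates of 100000 old cells. The methods name male mice throughout. No co-culture of old with old cells was among the libraries used here, so young partner cells and the presence of any partner cells cannot be told apart. The labels call the libraries biological replicates without naming the mouse behind each, so the p-values measure the spread between these libraries. Libraries held 22936251 to 29559194 reads counted in genes.

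Collagens are chains, most of them secreted, that wind around each other in sets into a helix. Fibrillar collagens assemble into the fibrils that carry tension in bone, skin and tendon, network collagens form the sheets of basement membranes and related meshes, and FACIT collagens sit on the surface of fibrils. Stromal cells of the marrow lay down much of the marrow matrix, and type I collagen is the main protein of the bone matrix that their osteoblast descendants make.

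Several measurements set the young libraries apart and bear on every comparison with them. Reads of the Y-linked gene Ddx3y numbered 0 to 2 in the young libraries, 1634 to 1900 in the old and 1596 to 2067 in the rejuvenated old ones, and Uty had 0 reads in every young library against 545 to 681 in the old. Xist, the long RNA that silences an X chromosome, had 19 to 40 reads in the young libraries and 2 to 15 in the old. The young libraries therefore go against the male donors named in the methods as far as Y-linked reads are concerned, and age and this difference cannot be told apart. Whole chromosomes were shifted as well. The median log2 fold change of young against old was -0.69 over the 800 genes tested on chromosome 1 and -0.75 over the 446 on chromosome 16, against -0.02 over all 14353 genes. It was 0.61 over the 1032 on chromosome 7 and -0.46 over the 496 on chromosome 12, which hold none of the 44 collagen genes, and ran from -0.30 to 0.22 on the other autosomes. In rejuvenated old against old the medians of chromosomes 1 and 16 were -0.01 and -0.01. The 13 mitochondrial genes tested had a median of -0.75 in young against old, 0.27 in rejuvenated old against old and 0.95 in rejuvenated old against young MSCs. Collagen genes on chromosomes 1 and 16 are therefore also given relative to their chromosome.

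A single rejuvenated old library stood apart in genes that were abundant in young libraries alone. Col11a1 and 12 other genes had at least 1000 normalized counts in every young library and at most 10 in every old one, a rule chosen after the values were seen. In rejuvenated old replicate 1 the median of these 13 genes was 2.03% of the young level, against 0.0835% to 0.183% in replicates 2 to 6 and 0.0597% to 0.212% in the old libraries. Replicate 5 of the same group lay far from the others in Col4a1, Col4a2 and the ratio of the type I chains. The rule behind this marked 7 of 135 groups of 6 libraries, and chance alone marks about 1 in 20. For collagen genes, their shares and their ratios, a library on which a call or an overlap named below rests is given there.

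The labelled cell type was checked against 9 lists of cell type markers, whose members partly overlap with the collagen regulators described further on. The 10 stromal markers summed to 58330 to 71955 normalized counts in young libraries (median 61048), 230977 to 251653 in old (243164) and 258154 to 311056 in rejuvenated old ones (289124). Ly6a, which encodes Sca-1, was the most abundant of them in young MSCs and the chemokine gene Cxcl12 in both old groups. All 10 were tested, with 4 higher and 6 lower in young than in old MSCs and 3 above and 4 below the old level in rejuvenated old MSCs. Of all 14353 genes tested, 41.6% were higher and 44.1% lower in young than in old MSCs, and in rejuvenated old MSCs 21.0% were above and 20.6% below the old level, all at an adjusted p under 0.05. The counts of this and the following lists are to be read against these shares. These sums rest largely on their leading gene, as Ly6a made up 39.9% of the mean sum in young MSCs and Cxcl12 81.5% in old and 82.9% in rejuvenated old MSCs. Thy1 had at most 3 reads in any old library.

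Macrophage markers were sparse in young MSCs and present in both old groups. The 9 genes summed to 945 to 1064 in young libraries (median 987), 12194 to 15469 in old (13841) and 12146 to 15010 in rejuvenated old ones (12939). Cd68 was the most abundant in young libraries (43.9% of the mean sum), where Ptprc and Adgre1 were at 0 in every library and Itgam had at most 3 reads, and Lyz2 in the others (73.6% in old, 73.1% in rejuvenated old). Of the 9, 8 were lower and 1 higher in young than in old MSCs, and in rejuvenated old MSCs 1 was above and 1 below the old level. The sums of old and rejuvenated old libraries overlapped.

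Markers of the skeletal lineages differed too. The 7 osteoblast markers, led by Spp1 in each group, summed to 4452 to 4699 in young (median 4638), 114584 to 123320.0 in old (116144) and 66414 to 94345 in rejuvenated old libraries (77906). Spp1 alone was 58.5% (young), 96.5% (old) and 94.9% (rejuvenated old) of the mean sum, and Ibsp had at most 3 reads in any young library. All 7 were lower in young than in old MSCs, and in rejuvenated old against old MSCs 5 were lower and 1 higher. The 6 chondrocyte markers, led by Sox9 (58.3%, 62.7% and 71.0% of the mean sums in the same order), summed to 596 to 670.4 in young (638), 846 to 1082 in old (989.5) and 1310.1 to 1479 in rejuvenated old libraries (1423). Of the 4 tested, 3 were lower and 1 higher in young than in old MSCs, and Sox9 alone was higher in rejuvenated old MSCs. Acan and Hapln1, which encode the aggregating proteoglycan of cartilage and its link protein, had at most 3 reads in any library. The 6 adipocyte markers, led by Lpl, summed to 16692 to 19207 in young (17266), 39033 to 41683 in old (40563) and 43005 to 54478 in rejuvenated old libraries (48348). Lpl alone was 97.8% (young), 81.4% (old) and 82.4% (rejuvenated old) of the mean sum, and in young libraries Plin1 was at 0 and Adipoq and Cfd had at most 3 reads. All 5 adipocyte markers tested were lower in young than in old MSCs, and 3 were higher and 1 lower in rejuvenated old MSCs.

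The remaining lists covered contractile, vascular, nerve sheath and blood cells. The 6 smooth muscle and myofibroblast markers, led by Acta2 (79.1%, 83.3% and 81.3% of the mean sums of young, old and rejuvenated old MSCs), summed to 45996 to 48775 in young (48120.3), 117145 to 129592 in old (123655) and 121376 to 140020 in rejuvenated old libraries (128598), with 5 lower and 1 higher in young MSCs and 2 higher in rejuvenated old MSCs. The 6 endothelial markers summed to at most 211 in any library, with Kdr leading in young (49.6% of the mean sum) and Vwf in old (82.1%) and rejuvenated old MSCs (88.4%) and Cdh5 at 0 in old MSCs. Of the 3 tested, 2 were higher and 1 lower in young MSCs, and 1 was lower in rejuvenated old MSCs. The 5 Schwann cell markers summed to 588 to 661 in young, 654 to 855 in old and 424 to 499 in rejuvenated old libraries, with Sox10 at 0 in both old groups, Mbp leading in young (77.5% of the mean sum) and S100b in old (76.4%) and rejuvenated old MSCs (66.1%). Of the 3 tested, 2 were higher and 1 lower in young MSCs, and S100b alone was lower in rejuvenated old MSCs. The 5 hematopoietic progenitor markers, led by Cd34, summed to 6787 to 7191 in young, 45.2 to 59.1 in old and 49.4 to 418 in rejuvenated old libraries, the 418 being replicate 1. In young libraries this sum was Cd34 alone, with Kit, Cd48, Gata1 and Hbb-bs at 0. Of the 2 tested, 1 was higher and 1 lower in young MSCs, and 1 was higher in rejuvenated old MSCs. Cd34 transcripts were thus abundant in the young libraries alone. In bulk RNA, fewer cells of a type and less RNA per cell cannot be told apart, and the part these marker lists had in the collagen results was not tested.

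**Figure D1:**
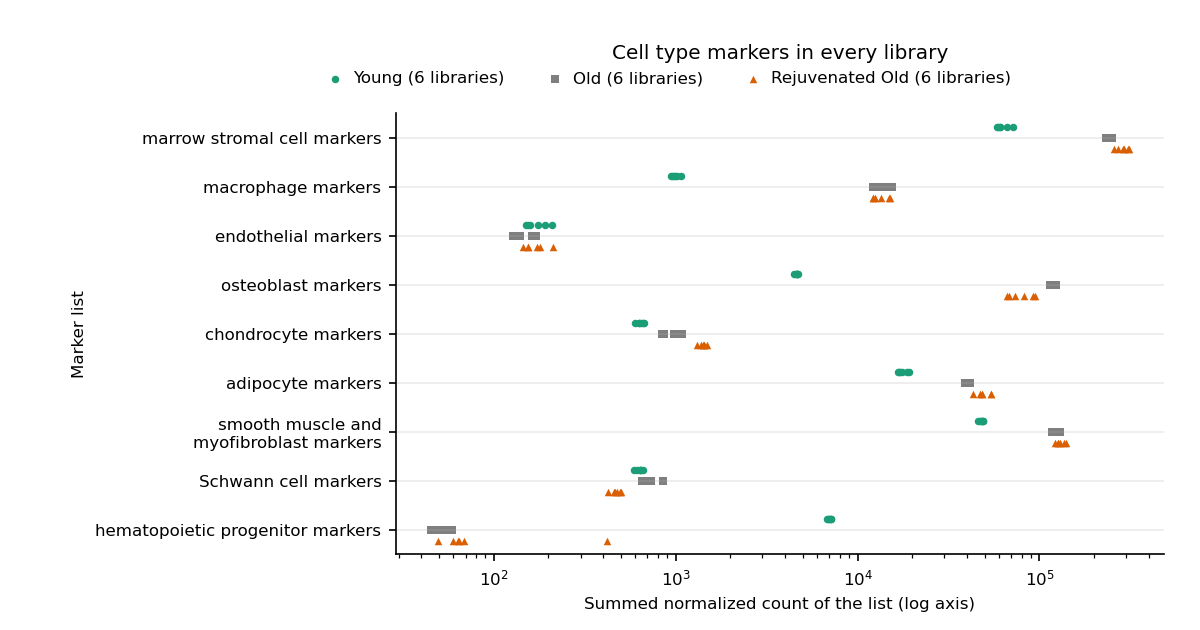
Summed normalized counts (log axis) of 9 lists of cell type markers, with 1 point for each of the 18 libraries, 6 per group. Stromal, macrophage, osteoblast, chondrocyte, adipocyte and smooth muscle sums are lower in every young library than in every other library. The rejuvenated old library at 418 in the hematopoietic list is replicate 1.

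Collagen transcripts made up a larger share of the reads in old than in young MSCs, with rejuvenated old MSCs between. The 44 genes together took 1.71% to 1.86% of all reads counted in genes in young libraries (median 1.74%), 2.38% to 2.46% in old (2.41%) and 1.83% to 2.07% in rejuvenated old ones (2.01%). The old libraries did not overlap with either other group, whereas young and rejuvenated old libraries did. That overlap rests on rejuvenated old replicate 5 (1.83%) and young replicate 1 (1.86%), since without the former the other rejuvenated old libraries started at 1.92%, and without the latter the other young ones ended at 1.82%. Col1a1, Col1a2 and Col3a1 carried most of it in young MSCs, and without these genes the mean shares of young, old and rejuvenated old MSCs were 0.487%, 1.28% and 1.02%, so that young and rejuvenated old MSCs lay further apart.

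Most collagen genes differed between young and old MSCs. Of the 35, 10 were higher and 18 lower in young MSCs at an adjusted p under 0.05 (limma over all 14353 genes tested), or 28.6% and 51.4%, where 41.6% and 44.1% of all genes tested were higher and lower. So many genes differed between these groups that a call alone says little about a collagen gene. The absolute log2 fold change had a median of 1.24 for collagen genes and 0.60 for all genes tested, while the signed medians were -0.17 and -0.02. Between rejuvenated old and old MSCs fewer genes differed, and 3 collagen genes were higher and 12 lower in rejuvenated old MSCs, or 8.57% and 34.3%, where 21.0% of all genes tested were higher and 20.6% lower. The median was -0.10 for collagen genes and 0.01 for all genes, and the median absolute value was 0.27 and 0.15. In rejuvenated old against young MSCs, 16 were higher and 15 lower, where 44.1% of all genes tested were higher and 41.5% lower, with medians of 0.05 and 0.03. These comparisons share libraries pair by pair and are not independent. The differences between collagen genes and all genes were not tested. Of the 35, 7 had a group mean under 10 and entered only through the groups where they were high, namely Col2a1, Col10a1, Col15a1 and Col28a1 (low in young MSCs), Col11a1 and Col4a6 (low in both old groups) and Col4a3 (low in rejuvenated old MSCs). The counts, and the median sizes of the fold changes, which include these 7, therefore describe the genes that passed and are not a result for the family.

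By class, the calls of young against old MSCs were 3 higher and 8 lower of 11 fibrillar genes (median log2 fold change -0.97), 3 and 3 of 9 network genes (0.13), 2 and 1 of 5 FACIT genes (-0.05) and 2 and 6 of 10 others (-1.72). For rejuvenated old against old MSCs the calls were 1 higher and 4 lower of the fibrillar genes (-0.05), 4 lower of the network genes (-0.59), 1 and 1 of the FACIT genes (0.02) and 1 and 3 of the others (-0.27). Of all genes tested, 41.6% were higher and 44.1% lower in the first comparison and 21.0% and 20.6% in the second. Network genes were the class whose calls in the second comparison all pointed down in the fit described. Col8a1 and Col8a2 passed upward with single libraries left out, and Col8a1 also with a block for the replicate number. Differences between classes were not tested. The plots of values by library and of fold changes show every gene.

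**Figure D2:**
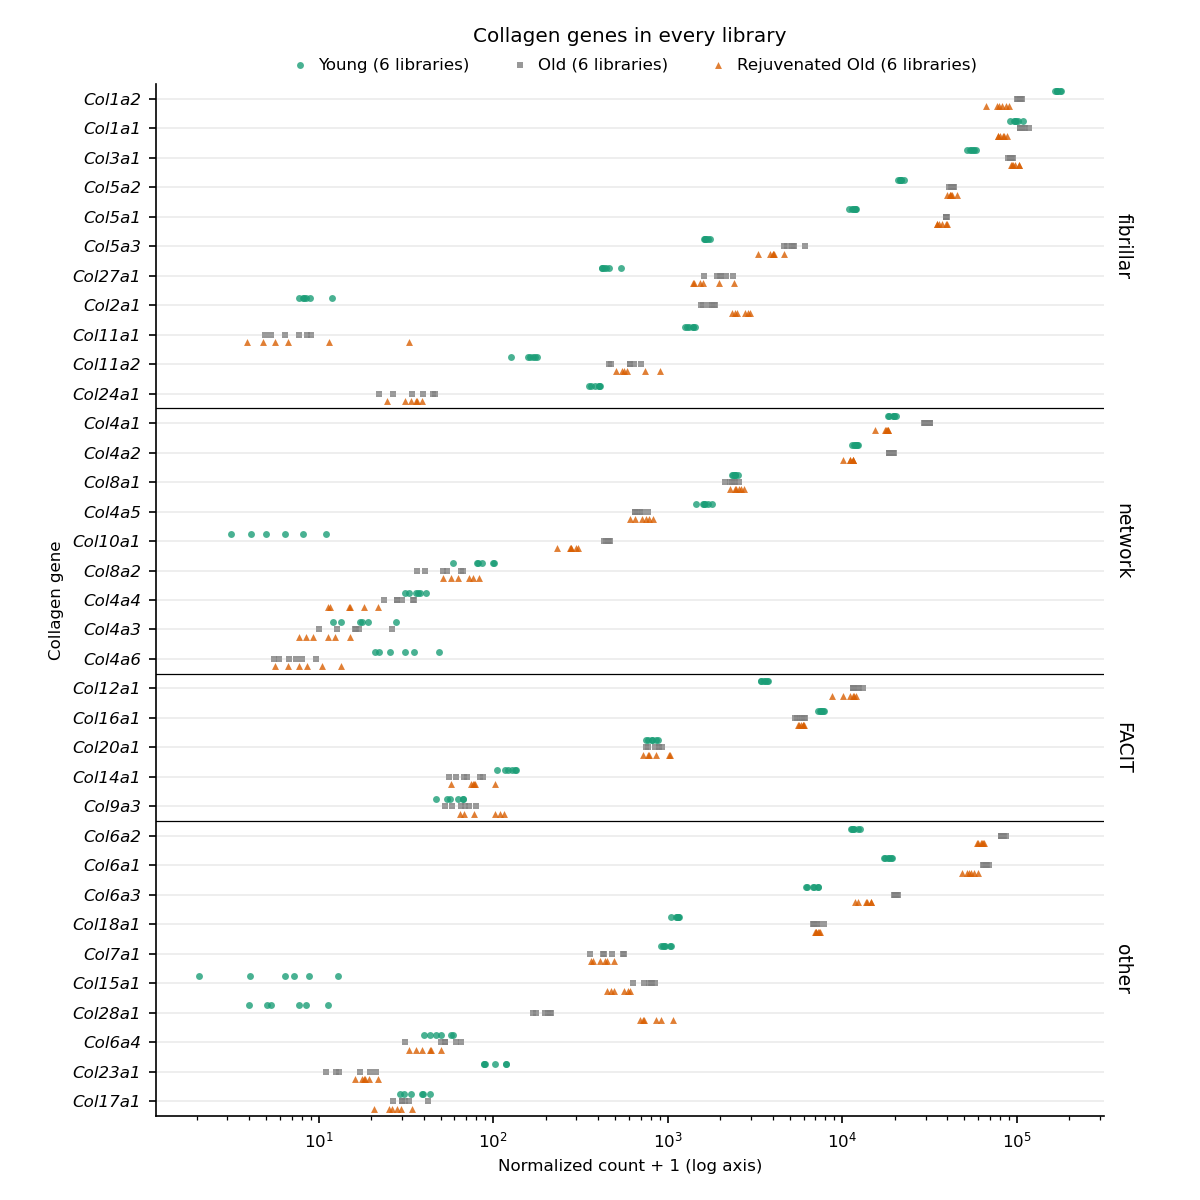
Normalized count plus 1 (log axis) of the 35 collagen genes, by class, with 1 point for each of the 18 libraries. Col2a1, Col10a1, Col15a1 and Col28a1 lie near the left edge in young MSCs alone, and Col11a1 does so in both old groups.

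**Figure D3:**
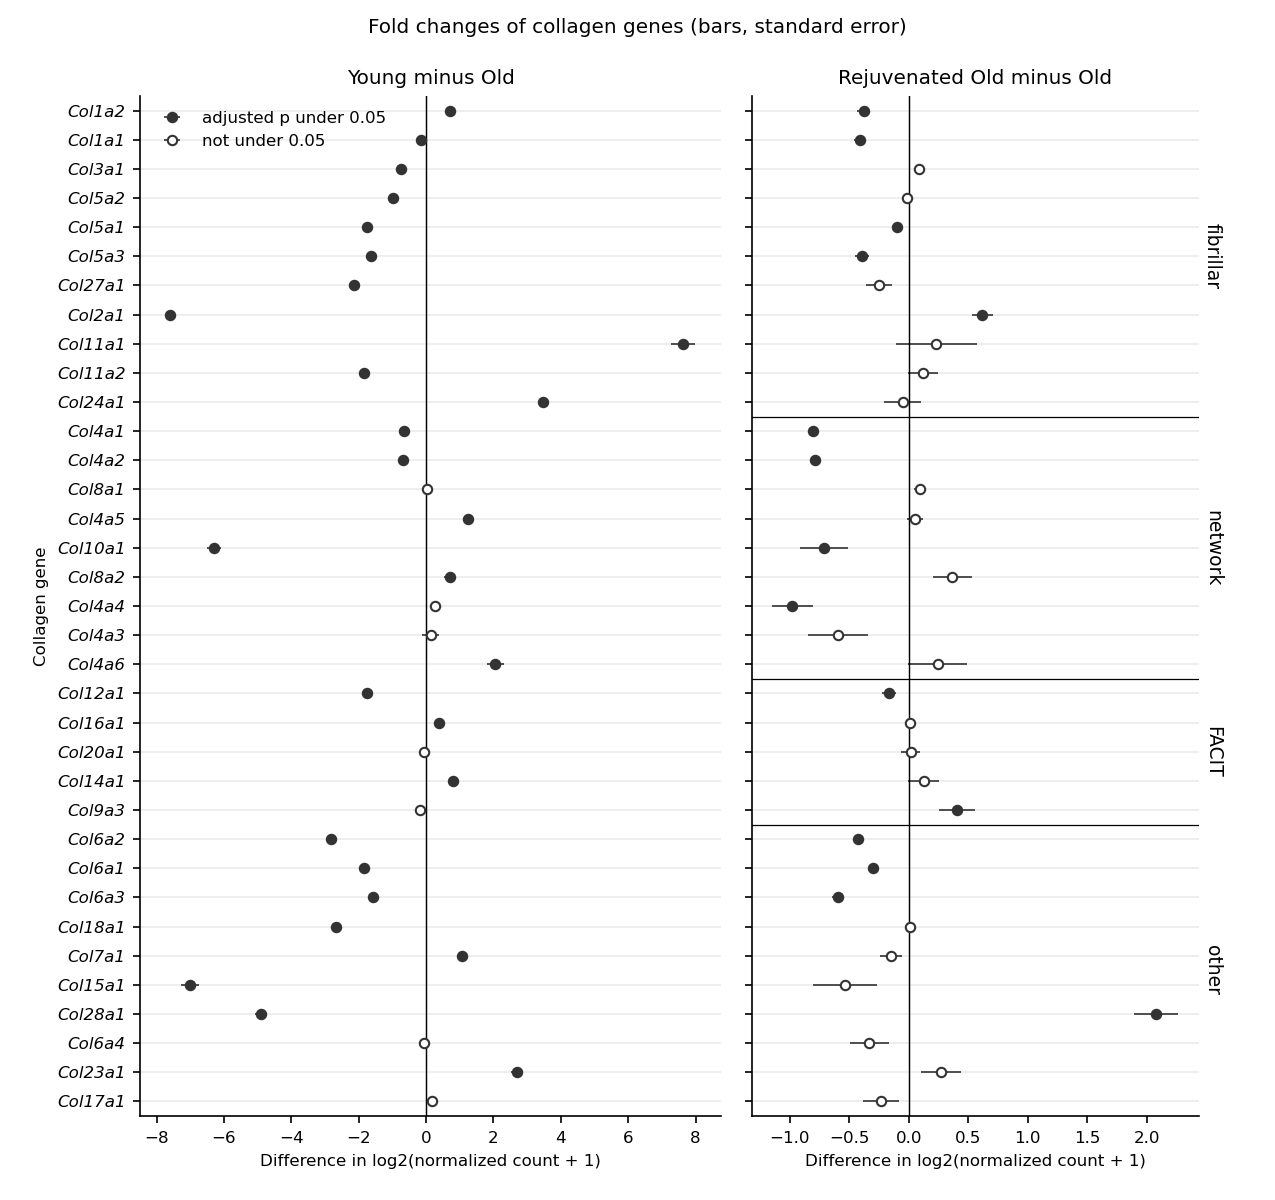
Differences in log2(normalized count + 1) for the 35 collagen genes, young minus old on the left and rejuvenated old minus old on the right, with bars for the standard error and filled points for an adjusted p under 0.05. The axes differ in range, since the differences on the right stay between -0.98 and 2.08.

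Per length of transcript, the collagen mixture shifted from type I toward type VI between young and old MSCs. Fibrillar genes held 80.6% to 81.8% of collagen normalized counts per kb in young libraries (median 81.2%), 59.8% to 61.3% in old (60.2%) and 62.7% to 64.2% in rejuvenated old ones (63.7%). The other class, in which Col6a1 and Col6a2 were the most abundant, held 9.06% to 9.57% in young (9.43%), 29.3% to 30.5% in old (30.1%) and 27.7% to 29.3% in rejuvenated old libraries (28.5%). Network genes held 6.79% to 7.31% in young (6.94%), 7.25% to 7.79% in old (7.50%) and 5.30% to 5.70% in rejuvenated old libraries (5.55%). FACIT genes held 2.39% to 2.56%, 2.02% to 2.14% and 2.28% to 2.53% in the same order. The fibrillar shares separated all 3 groups without overlap, while those of the other class overlapped between old and rejuvenated old libraries, though no longer without old replicate 2 or rejuvenated old replicate 6. Network shares of young and old libraries overlapped (not without young replicate 4 or old replicate 1), with the rejuvenated old ones below both, and FACIT shares of young and rejuvenated old libraries overlapped, with the old ones below both. This FACIT order depends on the division by length, since without it the means of the groups were 2.70% (young), 2.91% (old) and 3.29% (rejuvenated old).

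The order of the most abundant genes per kb also differed. In young MSCs it was Col1a2 with 32135 normalized counts per kb (40.7% of collagen), Col1a1 with 16724 (21.2%), Col3a1 with 9941 (12.6%) and Col6a1 with 4472 (5.67%). In old MSCs Col1a2 (17.5%), Col1a1 (16.6%), Col3a1 (14.9%), Col6a1 (14.6%) and Col6a2 (12.5%) lay close together. In rejuvenated old MSCs Col3a1 led with 17564 per kb (19.1%), before Col1a2 (16.3%), Col1a1 (15.0%), Col6a1 (14.3%) and Col6a2 (11.2%). Col1a2 thus stood well ahead in young MSCs, and several genes were of similar level in both old groups. The place of Col6a2 depends on the length used, 6008 bases of exon here and 4653 for its longest transcript. Col6a1 has 4100 bases by either measure, and with the longest transcript Col6a2 would lie above Col6a1 in old MSCs.

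**Figure D4:**
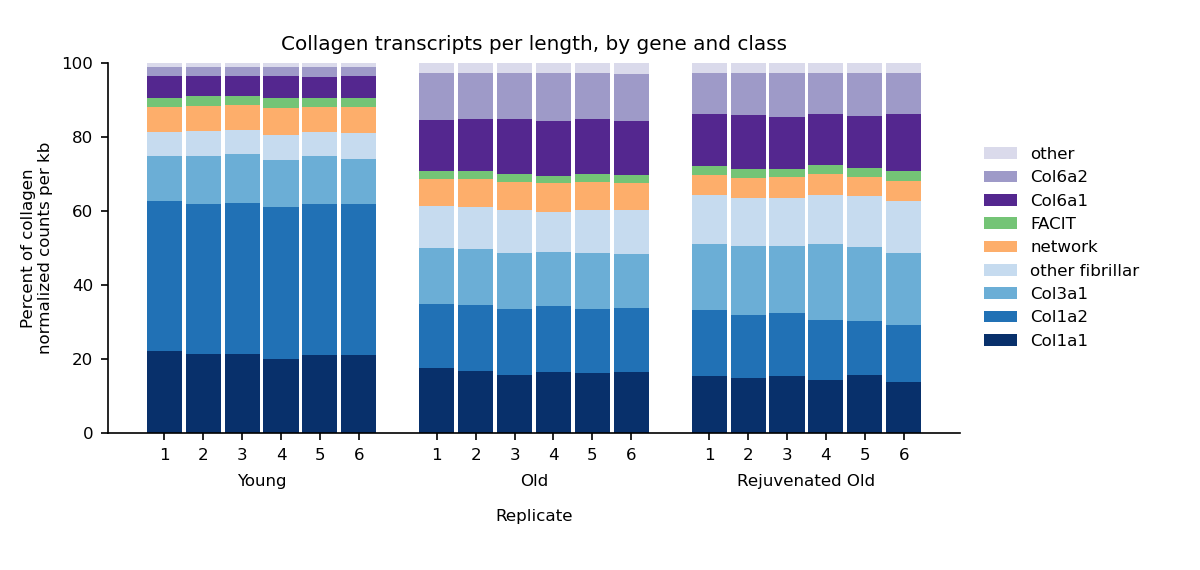
Percent of all collagen normalized counts per kb of transcript in each of the 18 libraries, stacked by gene for the most abundant genes and by class for the rest. Col1a2 takes the largest part in every young library, and Col6a1 and Col6a2 are wider in every old and rejuvenated old library.

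Type I collagen, the main collagen of bone, has Col1a1 and Col1a2 as its chains, and the 2 genes differed in the order of the groups. Col1a2 on chromosome 6 ran from 165729 to 179015 normalized counts in young libraries (median 170244), from 100908 to 107848 in old (104209) and from 66320.3 to 89678 in rejuvenated old ones (80862). No group overlapped with another. On the log2(value + 1) scale it was higher in young than in old MSCs by 0.72 (SE 0.055, adjusted p = 2.56e-11), and in rejuvenated old against old MSCs the difference was -0.38 (SE 0.055, adjusted p = 9.05e-06). In the fit described it was the only reported collagen gene above the old level in young and below it in rejuvenated old MSCs, and Col7a1 joined it when old replicate 2 was left out.

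Col1a1 on chromosome 11 ran from 90931 to 108843 in young (98464), from 103954 to 117129 in old (108945) and from 77672 to 87661 in rejuvenated old libraries (81893). Young and old libraries overlapped through young replicate 1 (108843), while every rejuvenated old library lay below every other. Rejuvenated old against old MSCs differed by -0.41 (SE 0.047, adjusted p = 3.05e-07). Young against old MSCs differed by -0.14 (SE 0.047, adjusted p = 0.0091), but this difference was -0.06 (adjusted p = 0.195) with the same total in every library and turned to 0.09 (adjusted p = 0.0595) with quantile normalization. Per length, the ratio of Col1a1 to Col1a2 was 0.485 to 0.548 in young libraries (median 0.522), 0.896 to 1.02 in old (0.937) and 0.867 to 1.09 in rejuvenated old ones (0.898). The 1.09 was replicate 5, and the other 5 ran from 0.867 to 0.927. Young MSCs thus held more Col1a2 per Col1a1 than either old group, and both old groups overlapped.

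Type III and type V collagens build thinner fibrils and fibril cores beside type I. Col3a1, the only chain of type III, ran from 51877 to 58290.0 in young (55292), 89027 to 95190.2 in old (92042) and 92926 to 103154 in rejuvenated old libraries (96408). Every young library lay below every other, and both old groups overlapped. Young against old MSCs differed by -0.74 (SE 0.039, adjusted p = 2.21e-14), but relative to the median of chromosome 1, on which it lies, the difference was -0.05 (adjusted p = 0.271). Between the old groups Col3a1 missed the threshold (0.08, adjusted p = 0.0863), whereas quantile normalization (0.19, adjusted p = 9.73e-05), edgeR (0.08, adjusted p = 0.0463) and DESeq2 (0.08, adjusted p = 0.0367) called it higher.

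Col5a2, a chain of type V, lies 24625 bases from Col3a1 on chromosome 1. It ran from 20932 to 22539 in young, 40687 to 43534 in old and 39723 to 45283 in rejuvenated old libraries, with -0.97 (SE 0.032, adjusted p = 4.34e-18), or -0.28 relative to chromosome 1 (adjusted p = 3.49e-08), in young against old MSCs and -0.02 (adjusted p = 0.748) between rejuvenated old and old MSCs. Its partner Col5a1 on chromosome 2 ran from 10924 to 12003 in young, 39096 to 40033 in old and 34793 to 39571 in rejuvenated old libraries. Both genes were thus lower in every young library, and Col5a1 by more, with -1.77 (SE 0.035, adjusted p = 1.87e-22). Old and rejuvenated old libraries of Col5a1 overlapped and their difference was small, at -0.10 (SE 0.035, adjusted p = 0.0307). That call was lost with quantile normalization (adjusted p = 0.0934), with only the 2 groups in the fit (0.0578), and without old replicate 6 (0.0561) or rejuvenated old replicate 3 (0.0619), 4 (0.0779) or 5 (0.0713). The ratio of Col5a1 to Col5a2 per length was 0.403 to 0.447 in young libraries, 0.713 to 0.766 in old and 0.647 to 0.744 in rejuvenated old ones, or to 0.704 without replicate 1. The minor chain Col5a3 ran from 1619 to 1747, 4632 to 6091 and 3287 to 4621 in the same order, without overlap, and differed by -1.64 (SE 0.062, adjusted p = 5e-17) and, in rejuvenated old against old MSCs, by -0.39 (SE 0.062, adjusted p = 2.67e-05).

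The remaining fibrillar genes belong to cartilage and to minor fibrils. Among the reported genes they held the extremes in both directions in young against old MSCs, though not in rejuvenated old against old MSCs. These extremes, Col2a1 and Col11a1, passed the limit on the mean only through the groups where they were high. Their place among the reported genes therefore follows in part from that limit. Col2a1, the main collagen of cartilage, ran from 6.70 to 10.9 in young (7.33), 1548 to 1857 in old (1756) and 2340.4 to 2963 in rejuvenated old libraries (2643). The 3 groups did not overlap, and it was barely detected in young MSCs. The difference of young against old MSCs was -7.61 (SE 0.089, adjusted p = 2.68e-26). Rejuvenated old MSCs lay further from young MSCs than old MSCs did, with a rise of 0.62 over old MSCs (SE 0.089, adjusted p = 8.04e-06), a fold of 1.54, and 0.60 without replicate 1.

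Col11a1, a chain of the thin fibrils of cartilage, had the opposite pattern. It ran from 1252 to 1441 in young (1357), 3.94 to 8.03 in old (6.09) and 2.90 to 31.9 in rejuvenated old libraries (5.16). All young libraries lay far above the others, and the 31.9 was replicate 1. Young MSCs exceeded old MSCs by 7.63 (SE 0.34, adjusted p = 1.25e-15). The old groups differed by 0.23 (SE 0.34, adjusted p = 0.628), and without replicate 1 by -0.18 (adjusted p = 0.550). Its partner Col11a2 did not share this pattern, with 125 to 178 in young, 459.8 to 705 in old and 503 to 898 in rejuvenated old libraries, -1.84 (SE 0.13, adjusted p = 4.52e-12) in young against old MSCs and 0.12 (adjusted p = 0.48) between rejuvenated old and old MSCs.

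Col24a1, a fibrillar collagen known from forming bone, ran from 352 to 410.4 in young (391), 21.1 to 45.4 in old (36.1) and 23.6 to 38.2 in rejuvenated old libraries (33.9). Old and rejuvenated old libraries overlapped, and every young library was higher, by 3.48 (SE 0.16, adjusted p = 1.51e-15) or 11.2-fold against old MSCs. Col27a1, a fibrillar collagen of cartilage, ran from 417 to 539 in young, 1609.9 to 2364 in old and 1392 to 2385 in rejuvenated old libraries. Every young library was lower, with a difference of -2.15 from old MSCs (SE 0.11, adjusted p = 1.17e-14). Rejuvenated old MSCs missed the threshold against old MSCs (-0.25, adjusted p = 0.0715). They passed it without old replicate 2 (0.0252) or rejuvenated old replicate 5 (0.0440) or 6 (0.00385), and with a block for the replicate number (0.0475).

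Col4a1 and Col4a2, the chains of the type IV collagen found in all basement membranes, were the network genes with the highest values and moved side by side. Their genes lie head to head on chromosome 8 in GRCm38.p6, Col4a1 at chr8:11198423-11312889 on the minus strand and Col4a2 at chr8:11312805-11449287 on the plus strand, so their start regions overlap. Windows from 250 bases before to 50 after the start are shown because the pair moved together. They come from the RefSeq annotation of that build, each read on its gene's strand, at chr8:11312777-11313076 (minus) and chr8:11312555-11312854 (plus). Capitals mark CCAAT or GGGCGG on either strand.
Col4a1: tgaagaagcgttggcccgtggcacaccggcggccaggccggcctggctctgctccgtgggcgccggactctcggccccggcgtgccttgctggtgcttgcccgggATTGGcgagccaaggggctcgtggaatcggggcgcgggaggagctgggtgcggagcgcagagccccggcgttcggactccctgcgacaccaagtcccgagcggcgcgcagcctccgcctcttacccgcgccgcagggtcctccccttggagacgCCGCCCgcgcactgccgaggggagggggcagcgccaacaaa
Col4a2: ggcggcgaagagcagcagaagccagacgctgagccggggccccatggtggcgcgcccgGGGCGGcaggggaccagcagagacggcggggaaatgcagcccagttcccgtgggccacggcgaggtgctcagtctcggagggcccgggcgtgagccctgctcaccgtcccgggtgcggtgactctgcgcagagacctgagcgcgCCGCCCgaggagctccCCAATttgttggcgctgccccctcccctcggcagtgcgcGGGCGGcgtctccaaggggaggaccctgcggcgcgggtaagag
The windows share 78 bases, and the start sites used for them, 11312826 (Col4a1) and 11312805 (Col4a2), lie 21 bases apart. The start used for Col4a1 lies inside the gene end given above. The first window held the CCAAT box 1 time and the GC box (GGGCGG) 1 time, and the Col4a2 window held them 1 and 3 times, at a GC content of 74% and 73.7%. Neither held the TATA box (TATAAA). The GC box of the Col4a1 window lies in the shared bases and is also 1 of the 3 in the Col4a2 window. Of 32851 windows of this length 37.4% held the CCAAT box, 35.7% the GC box and 13.6% the TATA box, each searched on both strands, and of the 28 reported collagen genes with a window 11, 18 and 4 did. These are letters in a window, and binding was not measured.

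Col4a1 ran from 18175 to 20302 normalized counts in young (19641), 29444 to 31896 in old (30722) and 15450.0 to 18223 in rejuvenated old libraries (17951). Every old library was above all others, and the lowest, 15450.0, was rejuvenated old replicate 5. It fell by 0.81 from old to rejuvenated old MSCs (SE 0.040, adjusted p = 4.38e-13), or by 0.77 without replicate 5. Young MSCs differed from old MSCs by -0.67 (SE 0.040, adjusted p = 2.9e-13). Rejuvenated old and young libraries overlapped, through young replicate 2 alone, with -0.14 (SE 0.040, adjusted p = 0.00271), which turned to 0.01 (adjusted p = 0.759) relative to the median of chromosome 8.

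Col4a2 ran from 11342 to 12305 in young (11883), 18509 to 19718 in old (19195) and 10059 to 11586 in rejuvenated old libraries (11271), with replicate 5 again the lowest. Rejuvenated old MSCs differed from old MSCs by -0.79 (SE 0.034, adjusted p = 5.45e-14), and by -0.76 without replicate 5. Young MSCs differed from old MSCs by -0.69 (SE 0.034, adjusted p = 7.1e-15). Old libraries were again above all others, and the rejuvenated old and young libraries, overlapping through young replicate 2 alone, differed by -0.10 (SE 0.034, adjusted p = 0.0126), or by 0.06 (adjusted p = 0.117) relative to chromosome 8. Per length, Col4a1 exceeded Col4a2 by a ratio of 1.56 to 1.63 in young, 1.54 to 1.58 in old and 1.498 to 1.59 in rejuvenated old libraries. The ratio thus overlapped between groups while both levels differed.

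**Figure D5:**
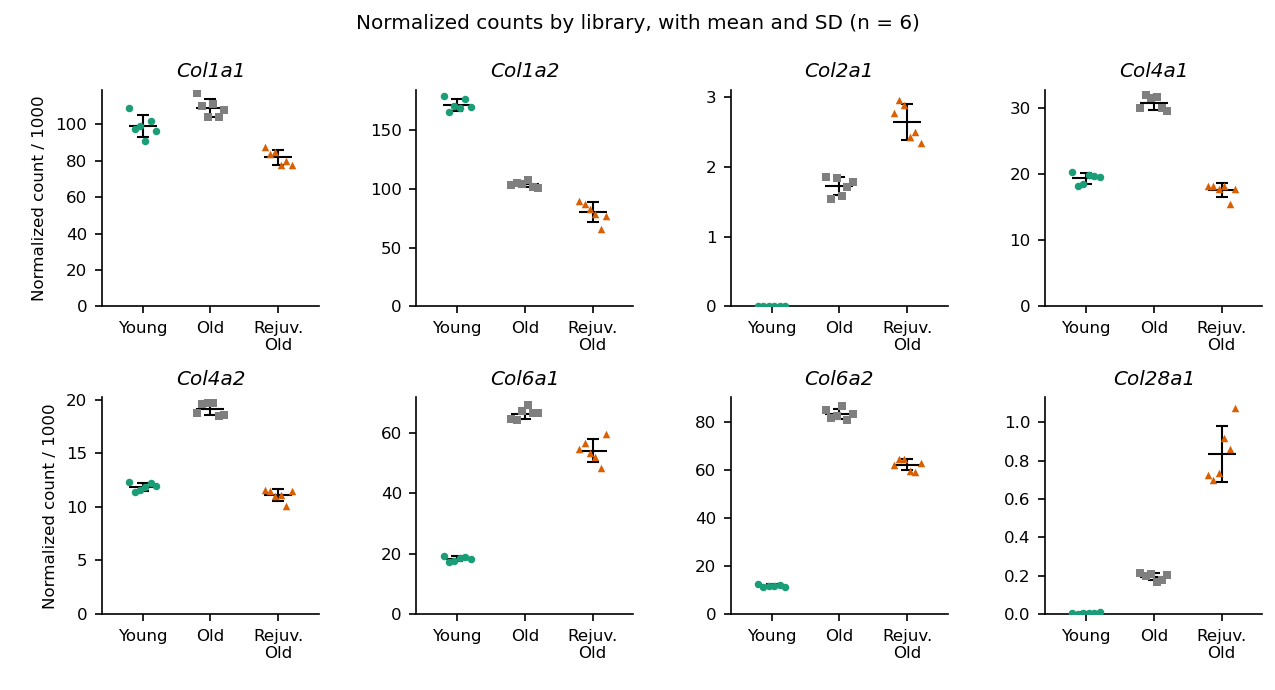
Normalized counts divided by 1000 of 8 collagen genes in the 18 libraries, 1 point each, with the mean and SD of each group of 6. Col4a1 and Col4a2 are highest in the old libraries, Col2a1 and Col28a1 in the rejuvenated old ones and Col1a2 in the young ones.

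The other type IV chains occur in specialised basement membranes such as that of the kidney filter, and their genes too lie in pairs. Col4a4 and Col4a3 lie head to head on chromosome 1 and were sparse. Col4a4 ran from 30.2 to 40.5 in young (35.5), 22.6 to 34.4 in old (28.1) and 10.3 to 20.8 in rejuvenated old libraries (14.1). Each rejuvenated old library was below every other, with -0.98 against old MSCs (SE 0.17, adjusted p = 8.09e-05), among the collagen genes the lowest called value of this comparison in the fit described. Young and old libraries overlapped (0.27, SE 0.17, adjusted p = 0.137), but with quantile normalization (0.52, adjusted p = 0.0181) and relative to the median of chromosome 1 (0.97, adjusted p = 1.82e-05) Col4a4 was higher in young MSCs.

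Col4a3 had the lowest mean of the reported genes, 14.0. It ran from 11.1 to 26.9 in young, 9.03 to 25.5 in old and 6.76 to 14.2 in rejuvenated old libraries, and all groups overlapped. It was called only in rejuvenated old against young MSCs (-0.73, adjusted p = 0.0102, or -1.42 relative to chromosome 1) in the fit described. For young against old MSCs it gave 0.13 (adjusted p = 0.623), -0.01 without young replicate 2, 0.63 (adjusted p = 0.0390) with quantile normalization and 0.82 (adjusted p = 0.00435) relative to chromosome 1. Rejuvenated old against old MSCs gave -0.59 (SE 0.25, adjusted p = 0.061), which passed the threshold with quantile normalization (0.0281), with a single prior variance (0.0497) and without old replicate 5 (0.0259) or rejuvenated old replicate 6 (0.0329).

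Col4a5 and Col4a6 lie 1275 bases apart on the X chromosome, and both were higher in young MSCs. Col4a5 ran from 1450.4 to 1796 in young (1619), 646 to 767 in old (681) and 606 to 819 in rejuvenated old libraries (727), and Col4a6 from 19.9 to 47.9 (27.5), 4.54 to 8.60 (6.12) and 4.66 to 12.4 (7.15). For both genes the young libraries were above all others and the old groups overlapped. Young against old MSCs differed by 1.24 (SE 0.066, adjusted p = 2.84e-14) for Col4a5 and 2.05 (SE 0.25, adjusted p = 8.03e-08) for Col4a6, and rejuvenated old against old MSCs by 0.05 (adjusted p = 0.565) and 0.24 (adjusted p = 0.468).

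Type VIII collagen forms hexagonal lattices in vessels and the cornea. Col8a1 ran from 2349 to 2518 in young, 2139.5 to 2564 in old and 2260.2 to 2719 in rejuvenated old libraries, all overlapping. It was not called in any comparison in the fit described. The comparison of young with old MSCs gave 0.04 (adjusted p = 0.39), but 0.11 (adjusted p = 0.0131) with the same total in every library and 0.79 (adjusted p = 4.58e-14) relative to chromosome 16. Rejuvenated old against young MSCs gave 0.05 (adjusted p = 0.262), which turned to -0.04 and -0.71 (adjusted p = 3.03e-13) in the same settings. Its rejuvenated old libraries gave 0.09 against old MSCs (adjusted p = 0.0941). They passed without old replicate 2 (0.0330) or rejuvenated old replicate 5 (0.0204), and with a block for the replicate number (0.0498).

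Col8a2 ran from 57.8 to 100.2 in young, 35.4 to 66.2 in old and 50.3 to 82.1 in rejuvenated old libraries. It was higher in young MSCs by 0.70 (SE 0.17, adjusted p = 0.000523), although young replicate 2 (57.8) lay within the old range. Against old MSCs, the rejuvenated old MSCs missed the threshold (0.37, adjusted p = 0.0814), passing it without old replicate 5 (0.0424) or 6 (0.0470) or rejuvenated old replicate 5 (0.0442). Compared with young MSCs they gave -0.33 (adjusted p = 0.0698), which passed with the same total (0.0246), the same 75th percentile (0.0491), quantile normalization (0.0119), DESeq2 (0.0339), relative to chromosome 4 (0.0207) and without young replicate 2 (0.0187) or rejuvenated old replicate 2 (0.0395).

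Col10a1, the collagen of hypertrophic cartilage, completed the network class. It ran from 2.13 to 10.1 in young (4.71), 433 to 469 in old (453) and 230.0 to 304 in rejuvenated old libraries (276), without overlap of any groups. Col10a1 in young against old MSCs differed by -6.29 (SE 0.20, adjusted p = 1.93e-18) and rejuvenated old against old MSCs by -0.71 (SE 0.20, adjusted p = 0.00675). Col10a1 thus fell in rejuvenated old MSCs while Col2a1 rose. Its gene lies inside Nt5dc1 on the opposite strand, and since the strand setting of the counting is not stated, reads of both cannot be told apart.

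Of the FACIT genes, which link fibrils to their surroundings, Col12a1 and Col16a1 had the highest means. Col12a1, a collagen of tendon and other loaded tissue, ran from 3405 to 3739 in young (3597), 11479 to 13163 in old (11979.9) and 8703 to 11922 in rejuvenated old libraries (11316). Every young library was lower, and both old groups overlapped. Col12a1 in young MSCs differed from old MSCs by -1.76 (SE 0.058, adjusted p = 3.61e-18). Rejuvenated old against old MSCs differed by -0.17 (SE 0.058, adjusted p = 0.0238), a call that was lost without old replicate 3 (0.0639) or rejuvenated old replicate 3 (0.0581) or 5 (-0.11, adjusted p = 0.0542).

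Col16a1 ran from 7305 to 7899.5 in young (7534), 5350.5 to 6150.1 in old (5809) and 5548 to 6010.1 in rejuvenated old libraries (5869). It was higher in each young library, by 0.39 against old MSCs (SE 0.034, adjusted p = 2.05e-10), and old and rejuvenated old libraries overlapped (0.01, adjusted p = 0.805, and just below 0 with the same total). Col14a1, which binds fibrils in skin and tendon, was lower in abundance, with 105 to 134 in young, 55.2 to 86.6 in old and 56.6 to 102 in rejuvenated old libraries. It had the same direction as Col16a1, with 0.81 in young against old MSCs (SE 0.13, adjusted p = 4.41e-06) and 0.13 (adjusted p = 0.465) between rejuvenated old and old MSCs.

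Col9a3, a chain of the type IX collagen on cartilage fibrils, ran from 45.8 to 65.9 in young (58.9), 52.2 to 78.5 in old (66.4) and 63.7 to 114 in rejuvenated old libraries (88.9). Old and rejuvenated old libraries overlapped, and the rise of 0.41 (SE 0.15, adjusted p = 0.0356) was among the weakest calls. It was lost with no filter on low values (adjusted p = 0.0605) and without old replicate 2 (0.0875), 3 (0.0545) or 4 (0.0743) or rejuvenated old replicate 1 (0.0854), 5 (0.0812) or 6 (0.0933). The gene overlaps Tcfl5 on the opposite strand. Col20a1 ran from 746 to 879 in young, 747 to 923 in old and 718 to 1030.0 in rejuvenated old libraries and was not called in any comparison or setting run.

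In the remaining class, the chains of type VI collagen, which forms beaded filaments around cells, had the highest values. Col6a2 ran from 11229 to 12588 in young (11606), 80845 to 86410.1 in old (82874) and 59112 to 64605 in rejuvenated old libraries (62521). Col6a1 ran from 17346 to 19332 in young (18381), 64427 to 69195 in old (66611) and 48549.6 to 59653 in rejuvenated old libraries (53952). For both genes the groups did not overlap and rejuvenated old libraries lay between the others. Young against old MSCs differed by -2.82 (SE 0.035, adjusted p = 6.38e-26) for Col6a2 and -1.86 (SE 0.042, adjusted p = 2.98e-21) for Col6a1. Rejuvenated old against old MSCs differed by -0.42 (SE 0.035, adjusted p = 2.68e-09) and -0.30 (SE 0.042, adjusted p = 6.52e-06). Col6a3 on chromosome 1 ran from 6166 to 7277 in young (6860.3), 19819 to 20934 in old (20234) and 11854 to 14618 in rejuvenated old libraries (13801), also without overlap. Its differences were -1.58 (SE 0.050, adjusted p = 1.27e-18), or -0.89 relative to chromosome 1, and -0.59 (SE 0.050, adjusted p = 2.76e-09). All 3 chains in rejuvenated old MSCs thus lay below the old and above the young level.

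The balance of these chains also differed. Per length, the ratio of Col6a1 to Col6a2 was 2.21 to 2.35 in young (median 2.26), 1.11 to 1.21 in old (1.17) and 1.20 to 1.39 in rejuvenated old libraries (1.28). The ratio of Col6a3 to Col6a1 was 0.134 to 0.145 in young (0.141), 0.112 to 0.119 in old (0.115) and 0.0867 to 0.101 in rejuvenated old libraries (0.0949). The young ratios overlapped with neither old group. Whether Col6a1 exceeds Col6a2 in the old groups depends on the length used for Col6a2, whereas the order of the groups does not. Both genes lie on the minus strand of chromosome 10 in GRCm38.p6, Col6a2 at chr10:76595756-76623630 and Col6a1 at chr10:76708792-76726044, 85162 bases apart. Their RefSeq windows, chr10:76623581-76623880 and chr10:76725995-76726294 on the minus strand, are shown because both genes had the same direction in either comparison with old MSCs from separate start regions, and capitals mark the same letters as before.
Col6a1: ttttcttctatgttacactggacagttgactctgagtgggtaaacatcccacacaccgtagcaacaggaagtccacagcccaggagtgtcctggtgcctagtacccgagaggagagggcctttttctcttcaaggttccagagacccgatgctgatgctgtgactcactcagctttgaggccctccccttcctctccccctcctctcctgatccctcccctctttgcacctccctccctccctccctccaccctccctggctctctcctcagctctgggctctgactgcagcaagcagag
Col6a2: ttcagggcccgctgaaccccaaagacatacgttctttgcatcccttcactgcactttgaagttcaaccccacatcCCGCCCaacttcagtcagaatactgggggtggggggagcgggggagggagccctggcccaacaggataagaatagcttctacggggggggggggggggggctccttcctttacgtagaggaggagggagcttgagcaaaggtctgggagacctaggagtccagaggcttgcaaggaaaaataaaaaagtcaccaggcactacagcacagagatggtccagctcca
The Col6a1 window held neither the CCAAT box nor the GC box and the Col6a2 window held the GC box 1 time, at a GC content of 57.3% and 56.7%, lower than in the Col4a1 and Col4a2 windows. A missing motif says only that these letters are not in the window.

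Col6a4, which lies apart from these genes on chromosome 9, was sparse, with 39.1 to 57.7 in young, 30.2 to 64.5 in old and 32.1 to 49.3 in rejuvenated old libraries, all overlapping. It was not called in the fit described, but rejuvenated old against old MSCs passed without old replicate 3 (-0.47, adjusted p = 0.0107), and rejuvenated old against young MSCs passed with the same total (-0.36, adjusted p = 0.0459) and quantile normalization (-0.45, adjusted p = 0.0133).

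Type XV and type XVIII collagens are basement membrane collagens whose ends are cut off as soluble fragments, endostatin in the case of type XVIII. Col15a1 ran from 1.07 to 12.0 in young (5.81), 630.1 to 846 in old (789) and 446 to 611 in rejuvenated old libraries (529). No groups overlapped, and young against old MSCs differed by -7.01 (SE 0.27, adjusted p = 7.65e-17). For rejuvenated old MSCs the difference of -0.53 from old MSCs (SE 0.27, adjusted p = 0.122) missed the threshold although every rejuvenated old library lay below every old one. It passed with only the 2 groups in the fit (7.09e-05), a pseudocount of 10 (0.00143), quantile normalization (0.0342), edgeR (3.95e-05), DESeq2 (3.68e-09) and without young replicate 5 (0.0209), at values from -0.55 to -0.53.

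Col18a1 ran from 1037 to 1165 in young (1138), 6839.9 to 7819.7 in old (7045) and 6962 to 7414 in rejuvenated old libraries (7207). Every young library was lower, with -2.67 against old MSCs (SE 0.034, adjusted p = 1.09e-25), and both old groups overlapped (0.01, adjusted p = 0.844, and -0.01 with the same total). The gene overlaps Slc19a1 on the opposite strand.

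Col28a1, a collagen known from peripheral nerve, had the largest rise of the reported genes in rejuvenated old against old MSCs. It ran from 2.99 to 10.3 in young (5.53), 168 to 214 in old (201.4) and 697 to 1075 in rejuvenated old libraries (796). The groups did not overlap, and the rise was 2.08 (SE 0.19, adjusted p = 7.82e-09), a fold of 4.22, or 2.12 without replicate 1. Since young against old MSCs differed by -4.90 (SE 0.19, adjusted p = 4.66e-17), rejuvenated old MSCs lay further from young MSCs than old MSCs did, as for Col2a1.

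The last members sit at epithelial junctions or in membranes. Col7a1, the anchoring fibril collagen of skin, ran from 909.5 to 1039 in young (959), 359 to 562 in old (456) and 364 to 489 in rejuvenated old libraries (423). Col23a1, a transmembrane collagen, ran from 87.1 to 118 in young (94.8), 9.998 to 20.4 in old (14.1) and 15.1 to 20.8 in rejuvenated old libraries (17.3). Both were higher in every young library, by 1.07 (SE 0.090, adjusted p = 1.56e-10) and 2.70 (SE 0.17, adjusted p = 5.71e-13) against old MSCs. Rejuvenated old MSCs gave -0.15 (adjusted p = 0.197) and 0.27 (adjusted p = 0.21) against old MSCs, and Col7a1 passed without old replicate 2 (-0.22, adjusted p = 0.0334). Col17a1, the transmembrane collagen of hemidesmosomes, ran from 28.3 to 42.4 in young, 25.8 to 41.4 in old and 19.8 to 33.3 in rejuvenated old libraries, all overlapping. It was called only in rejuvenated old against young MSCs (-0.40, adjusted p = 0.0205), and there not without young replicate 1 (0.0523) or rejuvenated old replicate 2 (0.0592), while young against old MSCs (0.16, adjusted p = 0.321) passed with quantile normalization (0.41, adjusted p = 0.0198).

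The calls of both comparisons with old MSCs can be set side by side. Of the 18 genes lower in young than in old MSCs, 10 were also below the old level in rejuvenated old MSCs, 2 were above it and 6 were not called, or 55.6%, 11.1% and 33.3%, beside 27.1%, 15.8% and 57.1% of the 6330 genes lower in young MSCs among all tested. The 10 were Col1a1 (not called between young and old MSCs with the same total or quantile normalization), Col4a1, Col4a2, Col5a1, Col5a3, Col6a1, Col6a2, Col6a3, Col10a1 and Col12a1, of which Col1a1, Col4a1 and Col4a2 were also below the young level, the latter pair not relative to the chromosome. Of the 10 genes higher in young MSCs, Col1a2 was below the old level in rejuvenated old MSCs and the other 9 were not called there, apart from the calls of Col7a1 and Col8a2 with single libraries left out. Among all 5967 genes higher in young MSCs, 15.4% were below the old level, 28.3% above it and 56.4% not called. As both comparisons use the same old libraries, these counts describe the genes and are no independent evidence, and the differences from all genes were not tested.

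The 9 genes under a mean of 10 were Col6a5, Col6a6, Col9a1, Col9a2, Col13a1, Col19a1, Col22a1, Col25a1 and Col26a1, with means of 0.0562 to 9.97 over the 18 libraries. Just above the limit stood Col4a3 (14.0) and Col4a6 (14.5), and just below it Col6a5 (9.97) and Col9a2 (7.18). Col6a5 ran from 0 to 3.35 in young, 12.7 to 29.8 in old and 2.06 to 22.6 in rejuvenated old libraries. Col13a1 ran from 6.39 to 14.5 in young libraries and was at 0 in every other library. These 9 were left out of the fit described. With no filter on low values, Col13a1 and Col6a6 were called higher and Col6a5 and Col9a2 lower in young than in old MSCs, Col6a5 was called below the old level in rejuvenated old MSCs, and in rejuvenated old against young MSCs Col6a5 and Col9a2 were called higher and Col13a1 and Col6a6 lower.

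Genes that fold, trim and cross-link collagen chains were called in both directions, as were all genes tested. Of 41 such maturation genes, among them prolyl and lysyl hydroxylases, chaperones, export factors and lysyl oxidases, 37 were tested. In young against old MSCs 12 were higher and 20 lower (median log2 fold change -0.15), beside 41.6% and 44.1% of all genes tested, and in rejuvenated old against old MSCs 14 were higher and 9 lower (-0.02), beside 21.0% and 20.6%. The largest rises in the latter were those of P3h2, a prolyl 3-hydroxylase, by 0.80 (SE 0.073, adjusted p = 9.76e-09), from 101 to 116 in old to 159.8 to 224 in rejuvenated old libraries, and of the cross-linking enzyme Loxl2, by 0.57 (SE 0.033, adjusted p = 5.63e-12), from 5149 to 5687 to 7823 to 8709. Neither overlapped. The largest falls were those of Pcolce2, which enhances the trimming of procollagen, with -0.60 (SE 0.21, adjusted p = 0.0263), and Loxl4, with -0.38 (SE 0.086, adjusted p = 0.00117).

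Of 12 collagen receptor genes 10 were tested, with 2 higher and 8 lower in young than in old MSCs (median -0.9997; 41.6% and 44.1% of all genes tested) and 4 above and 5 below the old level in rejuvenated old MSCs (-0.18; 21.0% and 20.6%). The integrin chain Itga1 rose by 0.37 (SE 0.068, adjusted p = 0.000149) and the receptor kinase gene Ddr1 by 0.33 (SE 0.041, adjusted p = 9.72e-07), both without overlap. Cd36 was at 0 to 1.07 in young, 241.8 to 283 in old and 95.1 to 172 in rejuvenated old libraries, with -1.02 in rejuvenated old against old MSCs (SE 0.21, adjusted p = 0.00038). Lair1, an inhibitory receptor of leukocytes, was at 0 to 1.03, 74.1 to 102 and 52.8 to 67.6, with -0.60 (SE 0.20, adjusted p = 0.0214).

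Of 19 genes for collagen degradation and its inhibitors 17 were tested, with 7 higher and 10 lower in young than in old MSCs (median -0.43; 41.6% and 44.1% of all genes tested) and 4 above and 8 below the old level in rejuvenated old MSCs (-0.13; 21.0% and 20.6%). Mmp13, a collagenase, ran from 19.6 to 39.1 in young, 5599 to 6507 in old and 11779 to 13595 in rejuvenated old libraries. It thus rose further from the young level, by 1.06 over old MSCs (SE 0.11, adjusted p = 4.91e-08), without overlap. Timp4, an inhibitor of such enzymes, rose by 0.92 (SE 0.34, adjusted p = 0.0326) at low values, 1.82 to 12.5 in old and 5.15 to 15.8 in rejuvenated old libraries, which overlapped. Mmp15, a membrane protease, differed by -1.27 (SE 0.12, adjusted p = 1.98e-08) and the inhibitor Timp2 by -0.63 (SE 0.046, adjusted p = 4.21e-10), again without overlap.

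All 31 regulators of collagen genes, growth factors of the TGF-beta family with their receptors and Smads and transcription factors, were tested. In young against old MSCs 12 were higher and 18 lower (median -0.24), again beside 41.6% and 44.1% of all genes tested, and in rejuvenated old against old MSCs 7 were higher and 12 lower (-0.05), beside 21.0% and 20.6%. Whether these 4 lists differed from all genes was not tested. Klf4, a zinc finger factor, ran from 1351 to 1693 in young, 930.1 to 1078 in old and 1637 to 1909 in rejuvenated old libraries and rose by 0.87 over old MSCs (SE 0.052, adjusted p = 1.14e-11). Sox9, the factor that drives Col2a1 in cartilage, ran from 344 to 394 in young, 530.1 to 668 in old and 921 to 1063 in rejuvenated old libraries and rose by 0.73 (SE 0.056, adjusted p = 7.34e-10). The values of Sox9 and Col2a1 thus had the same order of groups, and a link between them was not tested. Tgfb2 differed by -0.60 (SE 0.058, adjusted p = 2.45e-08) and Mkx, a tendon factor, by -0.52 (SE 0.078, adjusted p = 1.31e-05).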

How the data were processed

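RNA from 18 cultures was sequenced from stranded mRNA libraries. The authors aligned reads to mm10 with HISAT2, used StringTie and featureCounts, and normalized with DESeq2 on Galaxy, and neither versions nor the strand setting of the counting are given. What the authors deposited is a signal for each gene in each library, namely reads divided by a size factor, called normalized counts here. In every library 100% of values were whole multiples of what 1 read is worth, within 0.01 of a read. This gave the reads counted in genes, 22936251 to 29559194 per library, while reads outside the listed genes are not known. Relative counting error is largest where a group has few reads, such as 1 to 12 for Col15a1 in young libraries. Pairs of replicates differed by more than sampling noise (chi-square per degree of freedom 2.54 to 22.3 over 45 pairs), and each library counted as 1 replicate. This spread does not show whether the libraries came from separate mice.

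Tests used log2(value + 1) and limma 3.58.1 in R 4.3.3, with all 3 groups in 1 fit, a prior variance that follows the mean and Benjamini-Hochberg adjustment over 14353 genes, those whose mean was 10 or more. The test is two-sided, and fold changes on this scale understate changes of low genes. On the recovered reads DESeq2 1.42.0 called 6026 genes higher and 6233 lower in young than in old MSCs and 3135 and 3210 in rejuvenated old against old MSCs, and edgeR 4.0.16 (quasi-likelihood test) 6000 and 6276, and 3133 and 3080. For rejuvenated old against young MSCs the counts were 6216 and 6044 with DESeq2 and 6294 and 6004 with edgeR. The tests were tried on simulated data first. Shares and ratios per length used the exon length of GENCODE M21, and positions and promoter windows came from RefSeq on GRCm38.p6, where 35 of the 44 members had a window. Python 3.11.15, numpy 2.4.6, pandas 2.3.3, scipy 1.17.1 and matplotlib 3.10.9 were used for the rest.

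Every member with a mean of at least 10 was named. Given in full were Col4a1 and Col4a2, the 2 genes of each class with the highest mean, and the 3 that rose most and the 3 that fell most in young or rejuvenated old against old MSCs. Members with a mean of at least 10 that lie within 200 kb of each other are described together. From the lists of maturation, receptor, degradation and regulator genes the 2 largest rises and 2 largest falls in rejuvenated old against old MSCs were named. Any other gene or value was chosen after it was seen. Members, classes and lists were chosen with earlier results of these data known. Alternatives were pseudocounts of 0.5 and 10, no filter or a mean of at least 50, quantile normalization, the same total or the same 75th percentile in every library, a single prior variance, only 2 groups in a fit, a block for the replicate number, edgeR, DESeq2, an adjusted p under 0.01, a log2 fold change of 1 or more in size, fold changes relative to the chromosome, other lengths, and leaving out each library in turn.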

Additional observations from a re-analysis of the deposited data

Results flagged for a closer look

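Of 135 groups of 6 libraries checked, 7 held a library far from the other 5, and chance alone marks about 1 in 20. Col4a1 was 15450.0 in rejuvenated old replicate 5 and 17660.4 to 18223 in the others, and Col4a2 in the same library was 10059 beside 11049 to 11586. The ratio of Col1a1 to Col1a2 per length was 1.09 in that library and 0.867 to 0.927 in the others. Col11a1 was 31.9 in rejuvenated old replicate 1 and 2.90 to 10.5 in the others. Col2a1 was 10.9 in young replicate 1 and 6.70 to 7.97 in the others. Col27a1 was 539 in young replicate 1 and 417 to 462 in the others. Col18a1 was 1037 in young replicate 3 and 1121 to 1165 in the others.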

How the results depend on the processing

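Of 3237 alternative values over 105 fold changes (35 genes in 3 comparisons), 3150 kept their direction and side of the threshold, 41 passed it, 20 no longer passed and 26 changed sign. The cause was not tested for any change. Among called values the sign changed for Col1a1 in young against old MSCs (0.087, quantile normalization) and for Col4a1 (0.014) and Col4a2 (0.058) in rejuvenated old against young MSCs relative to the chromosome.

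Values not called changed sign as follows. In rejuvenated old against old MSCs these were, with the same total, Col16a1 (-0.0037) and Col18a1 (-0.0059), and over the fits that left out 1 library Col11a1 (-0.18 to 0.44), Col16a1 (-0.0096 to 0.031), Col18a1 (-0.0026 to 0.036), Col20a1 (-0.037 to 0.067), Col24a1 (-0.18 to 0.036) and Col5a2 (-0.036 to 0.0015). In young against old MSCs these were Col20a1 (0.020 same total, 0.043 chromosome), Col6a4 (0.011 same total, 0.10 quantile, -0.20 to 0.010 with 1 library left out) and Col4a3 (-0.0061 to 0.28 with 1 library left out). In rejuvenated old against young MSCs these were Col8a1 (-0.039 same total, -0.71 chromosome) and Col20a1 (-0.018 same total).

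Requiring a log2 fold change of 1 or more in size left 6 genes higher and 13 lower in young against old MSCs (13.8% and 18.1% of all genes tested), 1 higher and 0 lower in rejuvenated old against old MSCs (1.34% and 0.996%; limma without that limit called 3 and 12), and 12 higher and 8 lower in rejuvenated old against young MSCs (17.9% and 13.1%). In all alternatives run, counts of higher and lower genes ran from 6 to 13 and 13 to 20, from 1 to 4 and 0 to 14, and from 12 to 18 and 8 to 17 in the 3 comparisons. The lowest counts came from that fold limit. Counts over all genes moved too. Quantile normalization, which gave the 13 and the 17, called 6477 and 6542 of 14353 genes. No filter, which gave the 20 and the 18, called 7293 and 7196 of 21697. In rejuvenated old against old MSCs edgeR, with 4 collagen genes higher, called 3133 of 14353 higher. Without old replicate 2, with 14 lower, 2753 were lower.

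Without Col1a1, Col1a2 and Col3a1 the collagen share was 0.487% (young), 1.28% (old) and 1.02% (rejuvenated old). With the longest transcript and with no division by length, the fibrillar share was 80.5% and 80.7% in young, 58.1% and 61.2% in old and 61.4% and 64.8% in rejuvenated old MSCs, and the other class held 10.1% and 8.71%, 32.6% and 27.6%, and 30.9% and 25.9%. The network share was 7.22% and 8.25% in old and 5.32% and 6.01% in rejuvenated old MSCs, and with no division 7.87% in young MSCs. The FACIT share with no division was 2.70%, 2.91% and 3.29%.

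No pairing by replicate number was seen, as 0 of 18 pairs with the same number had deviations correlated over 0.1, beside 9 of 90 pairs with different numbers. Only 1 of 18 libraries correlated best with its own number. Whether libraries of the same number shared a mouse or a batch cannot be told from this. With the number as a block, 10 collagen genes were higher and 18 lower in young than in old MSCs, 4 and 13 in rejuvenated old against old MSCs, and 16 and 15 in rejuvenated old against young MSCs. Of all 14353 genes tested, the same fit called 5928 and 6291, 2916 and 2853, and 6289 and 5921 in these comparisons. Col8a1 (adjusted p = 0.0498) and Col27a1 (adjusted p = 0.0475) passed in rejuvenated old against old MSCs with that block. Depth limits most the groups with few reads.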
